A study of Mus musculus with 24 samples.

Results

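The 9 genes described here code for transcription factors of the liver. Hnf4a, Foxa1, Foxa2, Foxa3, Cebpa, Cebpb and Onecut1 are factors that set up and keep the hepatocyte programme, and Foxo1 and Foxo3 are forkhead factors under the control of insulin. They were listed by name, with earlier results of these data known, and all 9 were found among the 18194 genes to which a probe set of the array was annotated. Where a gene had several probe sets, the brightest by its mean over the 24 arrays stood for it. Hnf4a and Foxo1 had 4 probe sets each, Foxo3 had 3, Cebpb and Onecut1 had 2, and Foxa1, Foxa2, Foxa3 and Cebpa had 1. These are probe sets annotated to 1 gene alone, and 1 more for Foxo3, annotated to several genes, was not used.

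Messenger RNA was measured in whole liver of male B6C3F1 mice, 7 to 10 weeks of age on arrival, on 24 Affymetrix arrays. The DEHP groups received diethylhexylphthalate, a plasticiser that activates the nuclear receptor PPARA and that the study's title calls a rodent non-genotoxic carcinogen, by oral gavage at 1150 mg/kg/day. The corn oil groups received the same volume of vehicle (10 ml/kg) and no DEHP. Gavage was repeated every 24 h for 3 days, and livers belong to 2, 8, 24 or 72 h, which gives 8 groups of 3 arrays: DEHP 2 h and corn oil 2 h, DEHP 8 h and corn oil 8 h, DEHP 24 h and corn oil 24 h, and DEHP 72 h and corn oil 72 h. Separate animals are not stated for the 3 arrays in a group (the design text names 6 mice without further detail), so p-values measure the spread between these samples. The labels leave out how many gavages preceded the later samples, and gavage number, hour of the day and time cannot be told apart.

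Hepatocyte identity rests on a network of such factors that bind together at liver enhancers and regulate one another. Forkhead box A proteins open chromatin, and HNF4A, C/EBP alpha and ONECUT1 then hold genes of lipid, glucose and amino acid metabolism and of plasma proteins active. FOXO proteins carry the fasting state: insulin acts through AKT to phosphorylate them and move them out of the nucleus, so the level of their messenger RNA is only a part of their activity.

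Values are the deposited log2 signals, on which a difference of 1 is a doubling. Differences subtract corn oil from DEHP at each time, with the SE of a linear model (limma) over all 24 arrays and n = 3 arrays in each group, and a gene was called where its p, adjusted over all 18194 genes, was under 0.05. Array medians lay between 6.46 and 6.55, and arrays of a group correlated across probe sets with r of 0.989 or more. The number of arrays limits the precision. The mean of 8 hepatocyte markers lay between 13.08 and 13.37 on every array. Corn oil 8 h replicate 2 had an Actb 3' minus 5' difference of 1.46, against 0.82 on the next array (a wide difference is a sign of degraded RNA), and corn oil 72 h replicate 1 had the highest mean of 8 immediate-early genes, at 9.73. The summed log2 signal of 7 exocrine pancreas markers was 13.48 on DEHP 2 h replicate 1, 11.69 on DEHP 72 h replicate 1, 11.11 and 11.94 on corn oil 2 h replicates 1 and 2 and 12.26 on corn oil 72 h replicate 1, against 10.42 or less on the other 19 arrays. DEHP 8 h replicate 2 and corn oil 8 h replicate 3 carry the same number, 14, in their labels, and what it stands for is not given. Cyp4a14, a PPARA target, was 4.44 ± 0.40, 3.92 ± 0.40, 4.86 ± 0.40 and 5.70 ± 0.40 higher with DEHP at 2, 8, 24 and 72 h (adjusted p of 2.01e-06 or less), whereas Ppara itself was not called at any time. In bulk liver, fewer cells of a type and less RNA per cell cannot be told apart.

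DEHP livers had less messenger RNA of Foxo3 at 2 h, of Foxa3 at 8 h and 72 h, and of Hnf4a at 72 h. These were the 4 calls among 36 pairs of gene and time, and none was a rise. Without the 5 arrays with high pancreas markers, a fit chosen after seeing the data that keeps 1 corn oil 2 h array and assumes that it varies like the other groups, both Foxa3 calls held (-1.0 at 8 h and -0.89 at 72 h, adjusted p = 0.00285 and 0.0269), while Foxo3 at 2 h (-0.97, 0.146) and Hnf4a at 72 h (-0.49, 0.0504) did not pass. At 2 h, 1 of the 9 genes was called, against 0.83% of all genes tested. At 8 h, 1 of 9 was called, against 4.13% of all genes. At 24 h none was called by limma, where 0.297% of all genes were, and 2 of 9 had an unadjusted p under 0.05, against 8.13% of all genes. At 72 h, 2 of 9 were called, against 4.18% of all genes. Over the 4 times, 3 of 9 were called at least once, against 8.26% of all genes. The 9 genes lay between the 75.4 and 98.4 percentile of mean signal among all genes. Shares of all genes, here and below, are not matched for signal.

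The median difference of the 9 genes was -0.15, -0.21, -0.17 and -0.16 at 2, 8, 24 and 72 h, beside -0.02, -0.02, -0.00 and -0.03 over all genes tested. Arrays of the groups separated completely for 3 of the 9 genes at each time, against 11.4%, 18.6%, 13.8% and 28.2% of all genes. An F test over the 4 times called a DEHP effect for Hnf4a, Foxa3, Cebpb and Foxo3, which is 4 of 9 against 6.46% of all genes. A second F test called a difference of the effect between times for Foxa3, Cebpb and Foxo3, 3 of 9 against 2.08% of all genes.

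**Figure D1:**
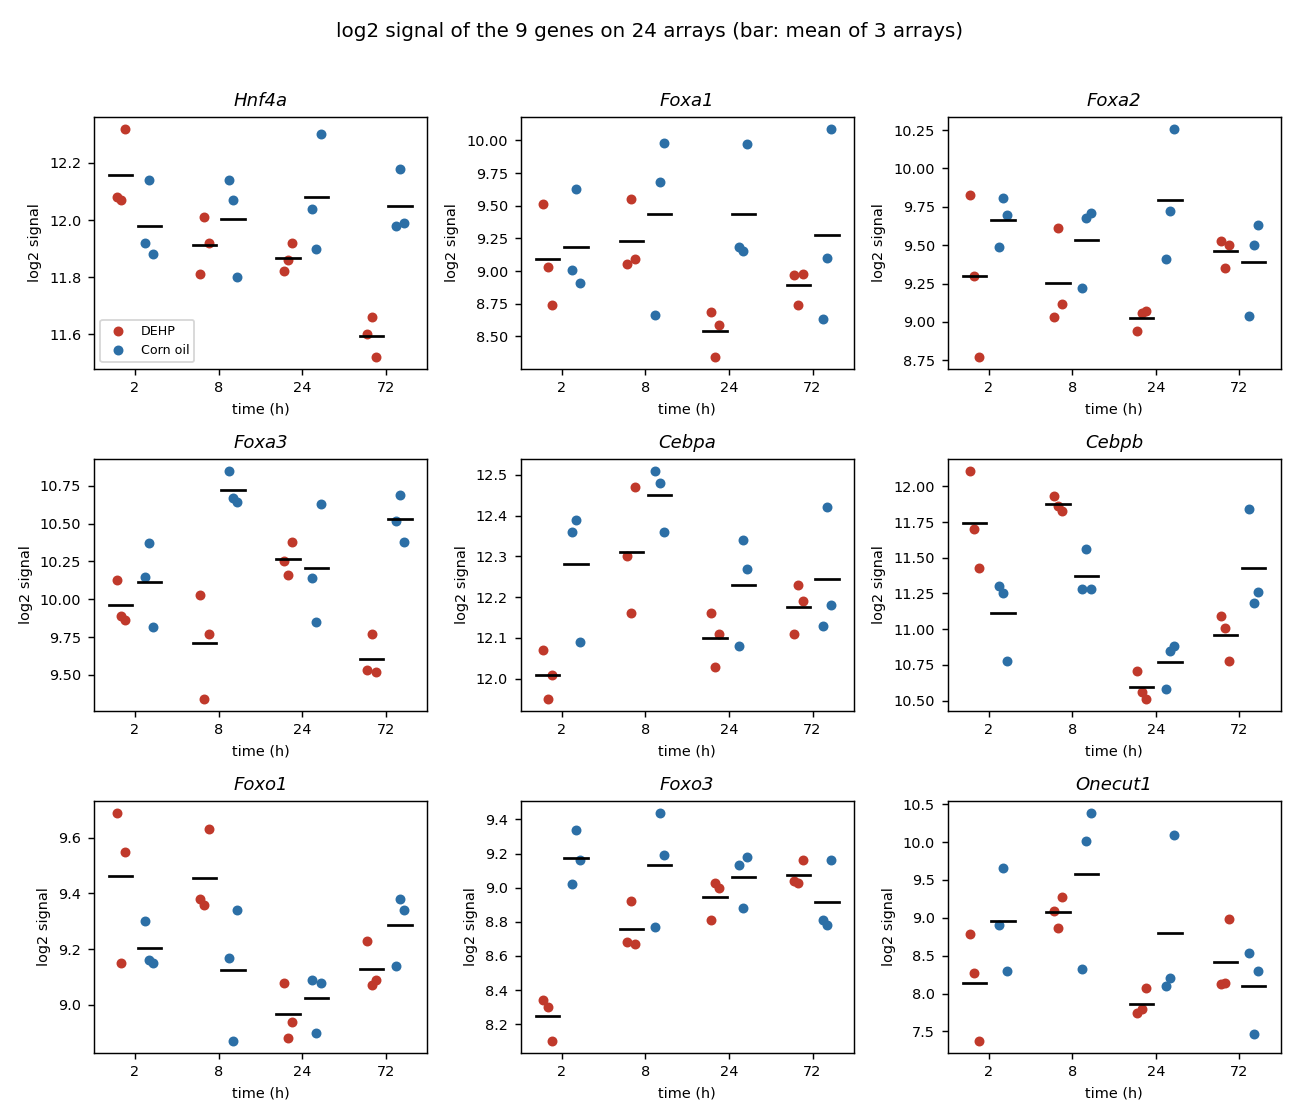
log2 signal (vertical axis) of each of the 9 genes on every array at 2, 8, 24 and 72 h (horizontal axis), with DEHP arrays in red, corn oil arrays in blue and the mean of 3 arrays as a bar. The red and blue points lie apart for Foxo3 at 2 h (8.10 to 8.34 with DEHP, 9.02 to 9.34 with corn oil), Foxa3 at 8 h and 72 h and Hnf4a at 72 h, and the Onecut1 and Foxa1 points spread most within groups.

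Hnf4a codes for a nuclear receptor that binds a large share of liver genes and is needed for lipoprotein secretion. At 72 h its log2 signal was 11.60, 11.66 and 11.52 in DEHP livers, against 11.98, 12.18 and 11.99 in corn oil livers. All 3 DEHP arrays were below all 3 corn oil arrays. The difference was -0.46 ± 0.11 (1.37-fold lower, adjusted p = 0.022). This call was lost without corn oil replicate 2 (-0.39, adjusted p = 0.116), without DEHP replicate 2 (-0.49, 0.0518), without DEHP replicate 3 (-0.42, 0.0924) and with quantile normalization (-0.41, 0.0519).

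At the other times Hnf4a was not called. Its difference was 0.17 ± 0.11 at 2 h, -0.09 ± 0.11 at 8 h and -0.22 ± 0.11 at 24 h (adjusted p of 0.627 or more), and the arrays overlapped. DEHP 2 h had the highest group mean, 12.16 ± 0.14 (SD, n = 3), and DEHP 72 h the lowest, 11.59 ± 0.07. In the order of the 8 group means, neighbours overlapped except DEHP 24 h (11.82 to 11.92) and DEHP 72 h (11.52 to 11.66). The F test for an effect at any time gave an adjusted p of 0.035 for Hnf4a. It was lost in 11 of the 24 fits that left out 1 array: without corn oil 2 h replicate 1 or 3, DEHP 8 h replicate 1 or 3, DEHP 24 h replicate 1 or 2, corn oil 72 h replicate 2 or 3, or any DEHP 72 h array, with an adjusted p of 0.113 at most. It was lost with quantile normalization (0.0598) and without the 5 arrays with high pancreas markers (0.0887) too.

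The 4 Hnf4a probe sets did not give the same answer at 8 h. From the brightest to the dimmest they differed by -0.09, 0.50, 0.21 and 0.75, and the arrays of the 0.50 and 0.75 probe sets were all higher with DEHP without passing the test (adjusted p of 0.0593 and 0.0867 over all 45101 probe sets). At 72 h the same probe sets differed by -0.46, -0.54, -0.39 and -0.69, all with every DEHP array lower. With the mean of the 4 probe sets the 8 h difference was 0.34 and the F test for a difference between times passed for Hnf4a (adjusted p = 0.0046). Which transcripts each probe set reads was not examined.

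Hnf4a has separate starts of transcription, and RefSeq (GRCm38.p6) places promoters at both. The downstream start is the one that adult liver mainly uses, and the upstream one is known from fetal liver and pancreas. The 250 bases before each are shown as a description, and whether the starts bear on the probe set differences at 8 h was not examined. Both lie on the plus strand, upstream at chr2:163506607-163506856 and downstream at chr2:163546905-163547154.
Hnf4a upstream start: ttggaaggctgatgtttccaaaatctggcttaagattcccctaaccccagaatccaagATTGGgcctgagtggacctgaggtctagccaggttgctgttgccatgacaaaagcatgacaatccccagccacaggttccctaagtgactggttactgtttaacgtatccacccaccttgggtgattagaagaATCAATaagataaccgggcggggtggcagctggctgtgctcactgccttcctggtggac
Hnf4a downstream start: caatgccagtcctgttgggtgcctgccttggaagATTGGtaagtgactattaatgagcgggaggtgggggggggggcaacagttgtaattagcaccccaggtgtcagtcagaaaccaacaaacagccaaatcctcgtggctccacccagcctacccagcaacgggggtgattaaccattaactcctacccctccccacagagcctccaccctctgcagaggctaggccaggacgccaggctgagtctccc
Capitals mark matches, on either strand, to 9 short motifs that were searched in all 32851 promoters of the table over the same 250 bases. The motifs were a forkhead site (TGTTTAC, in 3.17% of promoters), its second form (TGTTTGC, 4.3%), a C/EBP site (TTGCNNAA, 9.56%), the direct repeat with a spacer of 1 base that HNF4A and PPARA with RXRA read (DR1, 0.338%), an ONECUT1 site (ATCNAT, 18.9%), a cyclic AMP element (TGACGTCA, 1.55%), an E-box (CACGTG, 6.02%), a CCAAT box (CCAAT, 33.8%) and a TATA box (TATAAA, 12.4%). The upstream Hnf4a promoter held ATCAAT, an ONECUT1 form, from base -59 to -54 of the start, and both held a CCAAT box on the other strand. No match overlapped another in the promoters printed here, and a match of letters is a description, not a bound site.

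Foxa1, Foxa2 and Foxa3 code for the forkhead pioneer factors of liver, which open chromatin at liver enhancers. Foxa3 was lower with DEHP than with corn oil at 8 h and at 72 h. At 8 h its log2 signal was 10.03, 9.34 and 9.77 in DEHP livers, against 10.85, 10.67 and 10.64 in corn oil livers. Every DEHP array was below every corn oil array, and the difference was -1.0 ± 0.17 (2.00-fold lower, adjusted p = 0.0012). At 72 h it was 9.53, 9.77 and 9.52 in DEHP livers, against 10.52, 10.69 and 10.38 in corn oil livers, again without overlap. The difference was -0.92 ± 0.17 (1.9-fold lower, adjusted p = 0.0048). Both calls held without each array of their time in turn, with differences of -1.16 to -0.82 at 8 h and -1.01 to -0.84 at 72 h.

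At the other times Foxa3 was not called. At 2 h the difference was -0.15 ± 0.17 (95% interval -0.51 to 0.21), and at 24 h it was 0.06 ± 0.17 (-0.30 to 0.42), with arrays that overlapped. The F test for a difference of the effect between times gave an adjusted p of 0.0244, and 0.0501 without DEHP 72 h replicate 3 or 0.0726 without the 5 arrays with high pancreas markers. The single steps between times did not pass: the effect changed by -0.85 ± 0.24 between 2 h and 8 h (adjusted p = 0.147), by 1.06 ± 0.24 between 8 h and 24 h (0.0522) and by -0.98 ± 0.24 between 24 h and 72 h (0.266). At these steps limma called a change of the effect for none of the 9 genes, against 0.418%, 0.467% and 0.022% of all genes, and 2, 3 and 2 of 9 had an unadjusted p under 0.05, against 10.1%, 9.25% and 7.66%. Averaged over the 4 times, Foxa3 differed by -0.50 ± 0.09 on the log2 scale (adjusted p = 0.00076). It was 1 of the 2 genes called for the average effect, against 6.41% of all genes.

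Within each treatment, no step of Foxa3 between successive times was called. Its log2 signal averaged 9.96 ± 0.15, 9.72 ± 0.35, 10.27 ± 0.11 and 9.61 ± 0.14 at 2, 8, 24 and 72 h in DEHP livers (SD, n = 3), and the step between 2 h and 8 h was -0.25 ± 0.17 (adjusted p = 0.706). It averaged 10.11 ± 0.28, 10.72 ± 0.11, 10.21 ± 0.39 and 10.53 ± 0.16 at 2, 8, 24 and 72 h in corn oil livers, and the same step was 0.60 ± 0.17 (adjusted p = 0.0501). Ordered by mean, DEHP 8 h and DEHP 72 h were lowest and corn oil 8 h and corn oil 72 h highest, and each group overlapped the next in that order. A single probe set reads Foxa3, so no other on this array checks it.

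Markers of other cells and of the state of the tissue moved at the same times. At 8 h the immediate-early genes had a median difference of -0.60 with 1 of 8 lower, and their summed log2 signal lay between 10.47 and 10.73 in DEHP livers, against 11.17 to 11.30 in corn oil livers. The Actb 3' minus 5' difference lay between 0.55 and 0.71 in DEHP livers, against 0.59 to 1.46 in corn oil livers, and at 72 h it lay between 0.65 and 0.68 in DEHP livers, against 0.55 to 0.61 in corn oil livers, without overlap. With that difference as a covariate, Foxa3 was -0.99 at 8 h (adjusted p = 0.0116) and -0.93 at 72 h (0.00714), and Hnf4a was -0.47 at 72 h (0.0229). At 72 h, 4 of 9 macrophage markers were lower with a median of -0.67, and their summed log2 signal lay between 11.76 and 12.14 in DEHP livers, against 12.38 to 12.78 in corn oil livers. None of 7 sinusoidal endothelium markers was called, with a median of -0.32, but their summed log2 signal lay between 11.33 and 11.62 in DEHP livers, against 11.75 to 11.94 in corn oil livers. None of 8 stellate cell markers was called either, and their sum lay between 11.69 and 11.80 in DEHP livers, against 11.84 to 12.14 in corn oil livers. The stellate mean overlapped, 8.00 to 8.23 against 8.14 to 8.36. Acute phase genes were lower for 3 of 9 with a median of -1.49, and their summed log2 signal lay between 15.41 and 15.42 in DEHP livers, against 15.71 to 16.90 in corn oil livers. The part of the cell marker and acute phase shifts in the results for Foxa3 and Hnf4a was not tested. The 3 calls of these genes held without the pair of corn oil arrays (replicate 2 of 8 h, replicate 1 of 72 h) with the widest Actb difference and the highest immediate-early mean, although the F test of Hnf4a did not (0.0593). Of 8 hepatocyte markers, 1 was lower at 8 h and 1 higher at 72 h. Their summed log2 signal at 8 h lay between 16.78 and 16.83 in DEHP livers, against 16.84 to 16.90 in corn oil livers. At 72 h the sum lay between 16.84 and 16.87 in DEHP livers, against 16.8875 to 16.8895 in corn oil livers. Their mean was lower with DEHP at 8 h, 13.08 to 13.15 against 13.22 to 13.32. At 72 h it was higher, 13.26 to 13.30 against 13.21 to 13.24. Their part in these results was not tested.

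Foxa1 and Foxa2 had their lowest group mean in DEHP 24 h livers. Foxa1 was 8.69, 8.34 and 8.59 there, against 9.18, 9.15 and 9.97 in corn oil livers of 24 h, and Foxa2 was 8.94, 9.06 and 9.07, against 9.41, 9.72 and 10.26. For both genes every DEHP array was below every corn oil array. The differences were -0.89 ± 0.32 for Foxa1 (adjusted p = 0.469) and -0.77 ± 0.22 for Foxa2 (adjusted p = 0.263), so neither was called, with unadjusted p of 0.0114 and 0.00219. Without corn oil 24 h replicate 3, the highest array of both, the differences were -0.62 and -0.54. That array had an acute phase mean of 12.36, against 10.64 and 10.51 in its group. The summed log2 signal of immediate-early genes at 24 h lay between 11.41 and 11.85 in DEHP livers, against 10.98 to 11.38 in corn oil livers. That of hepatocyte markers lay between 16.81 and 16.85, against 16.88 to 16.90. The means of both lists overlapped between the groups. They were 7.49 to 8.00 against 7.30 to 7.60 for immediate-early genes and 13.16 to 13.29 against 13.25 to 13.37 for hepatocyte markers. None of these markers was called at 24 h, and their part in the Foxa1 and Foxa2 values was not tested.

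At 2, 8 and 72 h the Foxa1 and Foxa2 arrays overlapped between the groups. The Foxa1 difference was -0.09 ± 0.32, -0.21 ± 0.32 and -0.38 ± 0.32, and the Foxa2 difference was -0.37 ± 0.22, -0.28 ± 0.22 and 0.07 ± 0.22 at these times. Intervals were wide, from -1.05 to 0.29 for Foxa1 at 72 h, and leaving out 1 array turned the sign of Foxa1 at 2, 8 and 72 h and of Foxa2 at 72 h. Whether the Foxa genes differ from each other in their response was not tested.

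Promoters of the 3 Foxa genes are shown as a description, and no link of these letters to the levels was tested. All are on the minus strand of GRCm38.p6 (RefSeq): Foxa1 at chr12:57546112-57546361, Foxa2 at the upstream one of its 3 starts, chr2:148046970-148047219, and Foxa3 at chr7:19023540-19023789.
Foxa1: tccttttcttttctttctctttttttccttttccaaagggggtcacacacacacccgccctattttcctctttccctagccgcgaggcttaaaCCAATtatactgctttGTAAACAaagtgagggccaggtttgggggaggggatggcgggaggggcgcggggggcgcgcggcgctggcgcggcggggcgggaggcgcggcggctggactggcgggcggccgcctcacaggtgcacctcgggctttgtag
Foxa2: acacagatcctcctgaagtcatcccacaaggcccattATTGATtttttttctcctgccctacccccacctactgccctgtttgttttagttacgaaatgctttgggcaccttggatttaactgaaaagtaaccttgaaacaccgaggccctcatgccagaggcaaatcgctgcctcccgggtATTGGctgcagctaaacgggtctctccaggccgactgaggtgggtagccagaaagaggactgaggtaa
Foxa3: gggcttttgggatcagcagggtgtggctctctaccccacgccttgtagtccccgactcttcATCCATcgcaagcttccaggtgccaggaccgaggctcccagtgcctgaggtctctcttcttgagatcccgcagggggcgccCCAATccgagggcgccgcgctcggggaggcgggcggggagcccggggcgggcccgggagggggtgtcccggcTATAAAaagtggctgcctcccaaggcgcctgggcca
Capitals again mark motif matches. Foxa1 held a forkhead match on the other strand (GTAAACA) from base -141 to -135, and a CCAAT box. Foxa2 held an ONECUT1 form (ATTGAT) and a CCAAT box on the other strand, while Foxa3 held an ONECUT1 form (ATCCAT), with a CCAAT box and, from base -36 to -31, a TATA box.

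Onecut1, also known as hepatocyte nuclear factor 6, codes for a cut homeodomain factor of liver and bile duct and had the widest spread within groups of the 9 genes. The median SD of its groups was 0.62 on the log2 scale, and its arrays ran from 7.37 to 10.39. At 24 h it was 7.74, 7.79 and 8.07 in DEHP livers, against 8.10, 8.20 and 10.10 in corn oil livers, so all DEHP arrays were below all corn oil arrays, and corn oil replicate 3 stood far above the other two of its group. The difference was -0.93 ± 0.50 (adjusted p = 0.661), and -0.28 without that replicate. This is the array with an acute phase mean of 12.36, against 10.64 and 10.51 in its group. The part of that and of the other 24 h marker values given above in the Onecut1 values was not tested.

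At 2, 8 and 72 h the Onecut1 difference was -0.82 ± 0.50, -0.51 ± 0.50 and 0.32 ± 0.50, with arrays that overlapped. In the order of its 8 group means each neighbour overlapped the next. Its other probe set differed by -0.88, -0.13, -0.92 and 0.43 at 2, 8, 24 and 72 h, of the same sign each time. With 3 arrays a group the 95% intervals were wide, at 24 h from -1.97 to 0.10.

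Foxa1 varied together with Foxa2 and with Onecut1 from array to array. Over the 24 arrays Foxa1 correlated with Foxa2 (Pearson's r = 0.765, permutation p = 2e-05, Spearman's rho = 0.739, permutation p = 8e-05; adjusted over 36 pairs, 0.00072 and 0.00288). Without the 2 arrays farthest from the median of Foxa1, r was 0.809, and of deviations from the group means it was 0.797. Among the 8 first replicates r was 0.79 and among the 16 later ones 0.751. Foxa1 with Onecut1 gave r = 0.683 and rho = 0.58 (permutation p of 0.00025 and 0.00338, adjusted 0.0045 and 0.0364), with 0.746 without the 2 farthest arrays, 0.68 of the deviations, 0.395 among the first replicates and 0.712 among the later ones. Foxo3 went with these genes in the deviations, at 0.764 with Foxa1, 0.637 with Foxa2 and 0.619 with Onecut1. Over the 24 arrays its r was 0.353, 0.503 and 0.464 (permutation p adjusted 0.247, 0.0628 and 0.0807). Among the first replicates its r was -0.333, -0.157 and -0.4, and among the later ones 0.439, 0.656 and 0.588.

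**Figure D2:**
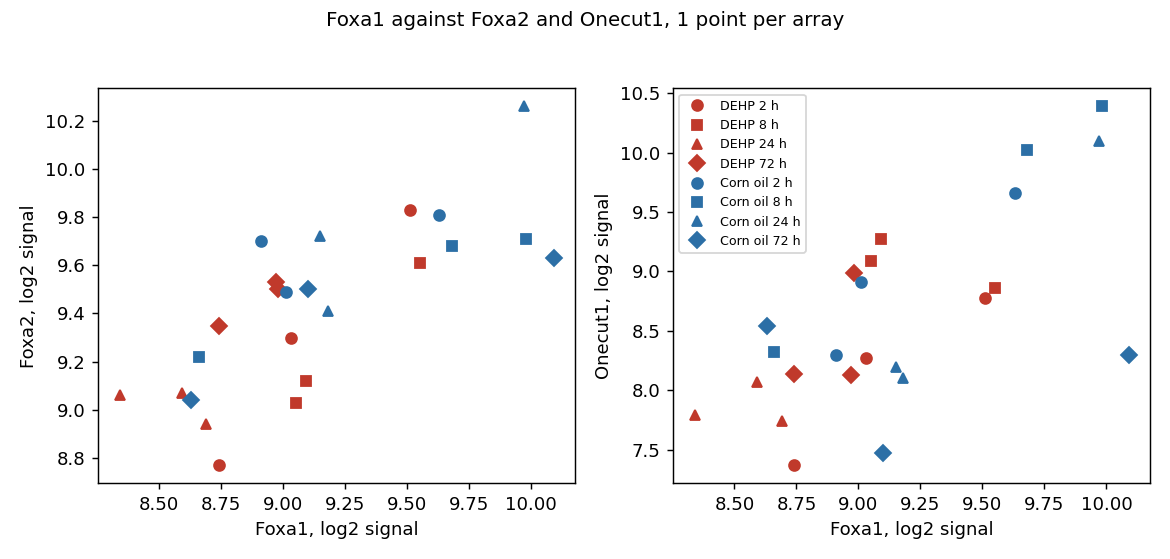
Foxa2 (left) and Onecut1 (right) against Foxa1, all as log2 signal, with 1 point per array, DEHP in red, corn oil in blue and the shape giving the time. Points rise to the right in both panels (r = 0.765 and 0.683), with the DEHP 24 h triangles at the low end of Foxa1 and the corn oil 24 h triangle of replicate 3 near the high end.

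Of the 36 pairs of genes, 5 had an adjusted p of Pearson's r under 0.05. Cebpb with Foxo1 gave r = 0.664 and rho = 0.658 (permutation p of 0.00042 and 0.00066, adjusted 0.00504 and 0.0119). Foxa2 with Onecut1 gave r = 0.577 and rho = 0.498 (0.00297 and 0.0142, adjusted 0.0267 and 0.0854). Foxo1 and Foxo3 opposed each other, with r = -0.568 and rho = -0.464 (0.0042 and 0.0244, adjusted 0.0302 and 0.11). Without the 2 arrays farthest from the median of the first gene, r was 0.553 for Cebpb with Foxo1, 0.391 for Foxa2 with Onecut1 and -0.451 for Foxo1 with Foxo3. Deviations from the group means gave -0.094, 0.596 and -0.244 for these pairs, so the pooled values of Cebpb with Foxo1 went with the groups. Those of Foxo1 with Foxo3 did so in part. Permutations moved arrays across all groups, so every permutation p also covers differences between groups. Among the first replicates r was 0.746, 0.223 and -0.756, and among the later ones 0.624, 0.643 and -0.498.

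Cebpa codes for the C/EBP factor that keeps hepatocytes quiescent and had the smallest range of group means of the 9 genes, from 12.01 to 12.45. The difference was -0.27 ± 0.10 at 2 h (adjusted p = 0.356), -0.14 ± 0.10 at 8 h, -0.13 ± 0.10 at 24 h and -0.07 ± 0.10 at 72 h. At 2 h the arrays were 12.07, 11.95 and 12.01 in DEHP livers, against 12.36, 12.39 and 12.09 in corn oil livers, all lower with DEHP by a small margin. The 95% interval at 2 h ran from -0.48 to -0.06, and those at 8, 24 and 72 h reached no lower than -0.35 and no higher than 0.14. Without the 5 arrays with high pancreas markers, which leaves 1 corn oil 2 h array, the 2 h difference was -0.11. In the order of the 8 group means each neighbour overlapped the next.

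Cebpb codes for the C/EBP factor induced by cytokines, glucagon and regeneration, and its difference changed sign with time. At 2 h its log2 signal was 12.11, 11.70 and 11.43 in DEHP livers, against 11.30, 11.25 and 10.78 in corn oil livers. At 8 h it was 11.93, 11.86 and 11.83 in DEHP livers, against 11.28, 11.56 and 11.28 in corn oil livers. The DEHP arrays were all higher at both times.

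At 72 h the order was turned. Cebpb was 11.09, 11.01 and 10.78 in DEHP livers, against 11.84, 11.18 and 11.26 in corn oil livers, all lower with DEHP. At 24 h the groups overlapped, with 10.71, 10.56 and 10.51 in DEHP livers, against 10.58, 10.85 and 10.88 in corn oil livers.

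None of the 4 differences of Cebpb was called alone in the fit of all arrays: 0.64 ± 0.17 at 2 h (adjusted p = 0.0941), 0.50 ± 0.17 at 8 h (0.11), -0.17 ± 0.17 at 24 h (0.822) and -0.47 ± 0.17 at 72 h (0.114). The F tests passed for an effect at any time (adjusted p = 0.0132) and for a difference between times (0.0237, and 0.0632 without DEHP 72 h replicate 3). The second Cebpb probe set differed by 0.86 ± 0.19 at 2 h (adjusted p = 0.0427 over all 45101 probe sets) and 0.87 ± 0.19 at 8 h (0.0117). With the mean of both probe sets, the 2 h and 8 h differences were 0.75 and 0.68 and passed (0.0435 and 0.027). With its brightest probe set the 2 h difference passed with the replicate number as a block (0.0469) and without the pair of corn oil arrays with the widest Actb difference and the highest immediate-early mean (0.0342). The 8 h difference passed from the 6 arrays of that time alone (0.0414) and without the 5 arrays with high pancreas markers (0.013), and the 72 h difference with array weights (-0.42, 0.0499).

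The 72 h difference of Cebpb leaned on corn oil replicate 1, the array with the highest immediate-early genes. Without it the difference was -0.26 (adjusted p = 0.358). Acute phase genes, among them C/EBP targets, had a median difference over 9 genes of 2.30 at 2 h, with 1 called higher, and of -1.49 at 72 h, with 3 called lower. Their summed log2 signal at 2 h lay between 16.05 and 16.98 in DEHP livers, against 15.56 to 15.82 in corn oil livers. The part of this shift in the Cebpb values was not tested.

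In DEHP livers Cebpb had its largest step between 8 h and 24 h. It averaged 11.75 ± 0.34, 11.87 ± 0.05, 10.60 ± 0.10 and 10.96 ± 0.16 at 2, 8, 24 and 72 h (SD, n = 3), and the step between 8 h and 24 h was -1.28 ± 0.17 (2.42-fold lower, adjusted p = 2.4e-05). That is 1 of 2 genes called at this step in DEHP livers, against 5.55% of all genes, and it held without each array in turn. In corn oil livers the same step was -0.60 ± 0.17 (adjusted p = 0.0576), beside 0.66 ± 0.17 between 24 h and 72 h (0.302), and the 8 h to 24 h steps of the groups differed by -0.67 ± 0.24 (adjusted p = 0.294).

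The Cebpb promoter, chr2:167688665-167688914 on the plus strand of GRCm38.p6 (RefSeq), is printed as that of a gene with an effect in the F tests.
Cebpb: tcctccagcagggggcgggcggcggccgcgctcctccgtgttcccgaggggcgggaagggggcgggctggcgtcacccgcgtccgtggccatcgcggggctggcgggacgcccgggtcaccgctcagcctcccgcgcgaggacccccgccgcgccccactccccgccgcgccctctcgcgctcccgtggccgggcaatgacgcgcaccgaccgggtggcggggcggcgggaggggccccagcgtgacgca
It has no capitals, since none of the 9 motifs matched these letters, and 81.6% of its bases were G or C. No match says only that these letters are not in this window.

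**Figure D3:**
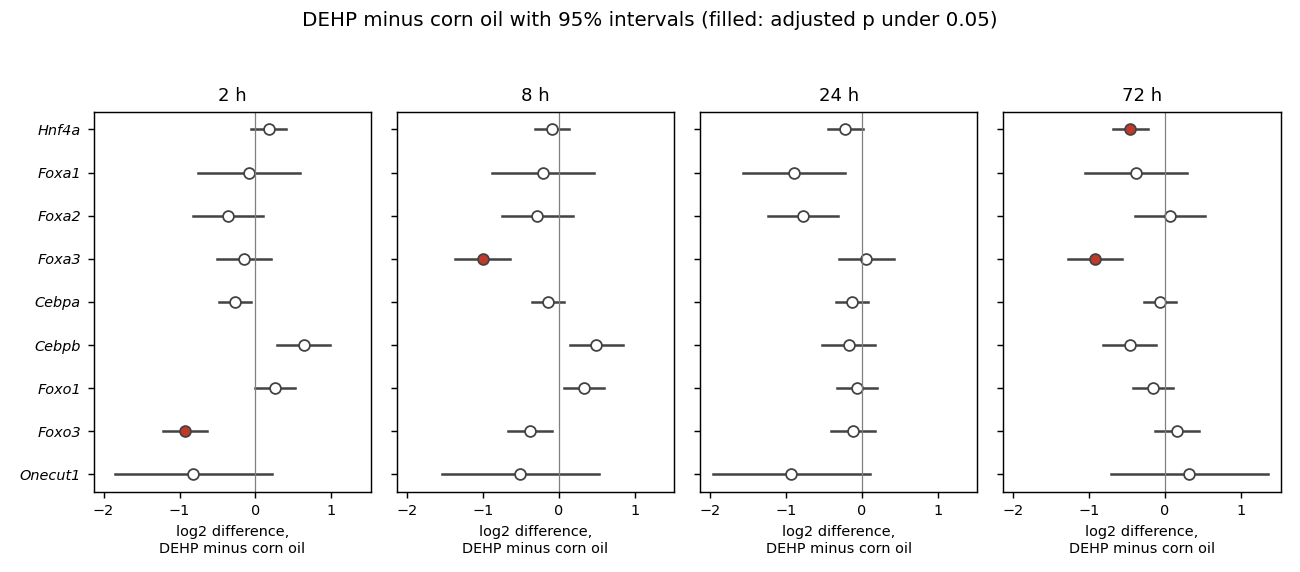
log2 difference of DEHP minus corn oil (horizontal axis) for the 9 genes (vertical axis) at 2, 8, 24 and 72 h, with 95% intervals from the fit and filled points for an adjusted p under 0.05. The 4 filled points, Foxo3 at 2 h, Foxa3 at 8 h and 72 h and Hnf4a at 72 h, all lie left of 0, and Cebpb lies right of 0 at 2 h and 8 h and left of it at 72 h.

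Foxo3 codes for a FOXO factor that drives autophagy and stress resistance genes. At 2 h its log2 signal was 8.34, 8.30 and 8.10 in DEHP livers, against 9.02, 9.34 and 9.16 in corn oil livers. All DEHP arrays were below all corn oil arrays, and the difference was -0.93 ± 0.14 (1.9-fold lower, adjusted p = 0.00065). It held without each array of that time, between -1.0 and -0.84, but not without the 5 arrays with high pancreas markers, 3 of them of 2 h (-0.97, 0.146). Other markers separated at 2 h too. Acute phase genes had a median difference of 2.30 with 1 of 9 higher, and their summed log2 signal lay between 16.05 and 16.98 in DEHP livers, against 15.56 to 15.82 in corn oil livers. The sum of stellate cell markers lay between 11.54 and 11.85 in DEHP livers, against 11.91 to 12.07 in corn oil livers, and that of 6 neutrophil markers between 9.68 and 9.76 in DEHP livers, against 9.59 to 9.64 in corn oil livers, with none of these markers called. Their part in the Foxo3 result was not tested. At 8 h it was 8.68, 8.92 and 8.67 in DEHP livers, against 8.77, 9.44 and 9.19 in corn oil livers, with overlap, and a difference of -0.38 ± 0.14 was not called (adjusted p = 0.15). Without corn oil 8 h replicate 1, the lowest corn oil array, it was -0.56 and passed (0.0193).

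At 24 h and 72 h Foxo3 differed by -0.12 ± 0.14 and 0.16 ± 0.14 (95% intervals -0.41 to 0.17 and -0.13 to 0.45), with arrays that overlapped. The effect differed between times by the F test (adjusted p = 0.0145, and 0.191 without the 5 arrays with high pancreas markers). In DEHP livers Foxo3 averaged 8.24 ± 0.13, 8.76 ± 0.14, 8.95 ± 0.12 and 9.08 ± 0.08 at 2, 8, 24 and 72 h, and in corn oil livers 9.17 ± 0.16, 9.13 ± 0.34, 9.06 ± 0.16 and 8.92 ± 0.21 (SD, n = 3). The step between 2 h and 8 h in DEHP livers was 0.51 ± 0.14 (adjusted p = 0.0381), 1 of 9 genes against 4% of all genes. It was lost on leaving out any of the 6 DEHP arrays of these times (0.0645 to 0.176), and with median centring (0.0547), the Actb difference as a covariate (0.0564) or without the 5 arrays with high pancreas markers (0.0948). DEHP 2 h stood below the next group in the order of means, DEHP 8 h, without overlap.

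The Foxo3 probe sets differed in size. At 2 h the next one differed by -0.77 ± 0.14 (adjusted p = 0.00585 over all probe sets), and the dimmest by -0.23 ± 0.14 with arrays that overlapped. At 8 h the 3 probe sets gave -0.38, -0.06 and 0.12. With the mean of the probe sets the difference at 2 h was -0.65, still past the threshold. The average effect over the 4 times, -0.31 ± 0.07 with the brightest probe set (adjusted p = 0.0074), was -0.16 and did not pass (0.0985).

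Foxo1 codes for the FOXO factor that drives glucose production in fasting and was not called at any time. Its difference was 0.26 ± 0.13 at 2 h and 0.33 ± 0.13 at 8 h (adjusted p of 0.593 and 0.164), and -0.06 ± 0.13 and -0.16 ± 0.13 at 24 h and 72 h. At 8 h all DEHP arrays, 9.38, 9.36 and 9.63, were above all corn oil arrays, 9.17, 8.87 and 9.34, by a small margin, but the other 3 probe sets gave -0.01, 0.09 and -0.01. Between 8 h and 24 h Foxo1 changed by -0.49 ± 0.13 in DEHP livers (adjusted p = 0.0208), with 9.45 ± 0.15 at 8 h and 8.97 ± 0.10 at 24 h. That call was lost without DEHP 8 h replicate 3 (0.129) and without DEHP 24 h replicate 2 (0.096) or 3 (0.0715). In corn oil livers the same step was -0.10 ± 0.13.

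The Foxo3 promoter lies at chr10:42276696-42276945 on the minus strand of GRCm38.p6 (RefSeq) and is shown because Foxo3 had the earliest call.
Foxo3: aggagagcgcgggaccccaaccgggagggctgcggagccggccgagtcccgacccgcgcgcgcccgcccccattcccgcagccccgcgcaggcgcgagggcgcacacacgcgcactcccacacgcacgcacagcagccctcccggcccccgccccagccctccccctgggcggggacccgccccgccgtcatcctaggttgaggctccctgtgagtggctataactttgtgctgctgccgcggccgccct
It too matched none of the 9 motifs, and 76.4% of its bases were G or C.

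**Figure D4:**
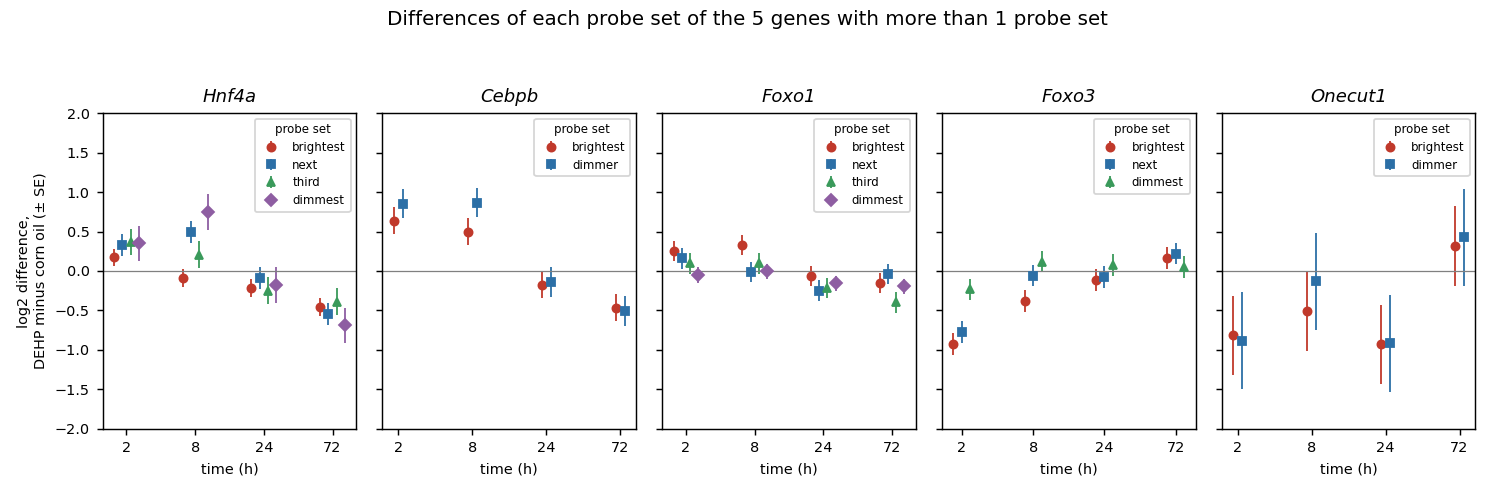
log2 difference of DEHP minus corn oil ± SE (vertical axis) at 2, 8, 24 and 72 h (horizontal axis) for the 5 genes that have more than 1 probe set. Each probe set annotated to the gene alone is shown, with the brightest in red. The Hnf4a probe sets run from -0.09 to 0.75 at 8 h and from -0.69 to -0.39 at 72 h, and the Foxo3 probe sets from -0.93 to -0.23 at 2 h.

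Without DEHP, the fit of all arrays called none of the genes between times. In corn oil livers the F test for differences between times called 0 of 9 genes in limma, against 3.55% of all genes, with an unadjusted p under 0.05 for Foxa3 (0.00676) and Cebpb (0.00292), against 16.7% of all genes. Successive corn oil times called none in limma, against 4.06%, 2.57% and 0.011% of all genes, and 1, 3 and 1 of 9 had an unadjusted p under 0.05, against 15.6%, 13.3% and 8.68%. Cebpb came nearest, with an adjusted p of 0.0675 in that F test. It passed with the replicate number as a block (0.0349), replicate 1 against later ones as a block (0.0405), array weights (0.0447) and without the 5 arrays with high pancreas markers (0.0138), and Foxa3 passed with array weights (0.0369). Leaving out 1 array took Cebpb past the threshold without DEHP 2 h replicate 1 (0.0405) or 3 (0.0491) or corn oil 72 h replicate 2 (0.0499), and Foxa3 without corn oil 24 h replicate 3 (0.0188). For successive corn oil times, 8 other settings called 1 to 3 of the 9 genes. In corn oil livers Cebpb averaged 11.11 ± 0.29, 11.37 ± 0.16, 10.77 ± 0.17 and 11.43 ± 0.36 at 2, 8, 24 and 72 h (SD, n = 3).

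Genes with a pattern most like that of the 4 genes with an effect were looked for among the brightest 10915 genes, by Pearson's r over the 24 arrays, given as a description. For Cebpb they were Pim3 (r = 0.92), a kinase gene, Rcl1 (0.83) and Rnf24 (0.83). For Foxo3 they were Fchsd2 (0.86), Cenpo (0.79) and Zfp385b (0.78). For Hnf4a they were Mtf1 (0.85), which codes for the zinc-sensing metal response factor, Rnf168 (0.83) and Prr14l (0.83). For Foxa3 they were Iffo2 (0.81), Stat6 (0.80), which codes for the interleukin-4 signal transducer, and Trim21 (0.79). By the 8 group means Pim3, Rnf168 and Cenpo ranked first for Cebpb, Hnf4a and Foxo3. Rcl1 ranked 48 and Rnf24 75 for Cebpb by that measure, and Trim21 173 for Foxa3. Zfp385b ranked 88 for Foxo3 by Spearman's rho. Members without an F-test call had best matches with r between 0.75 (Cebpa with Sox12) and 0.85 (Onecut1 with Bach1).

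Partners and targets of the 9 factors were taken from hand-written lists. Of all genes tested, 0.616%, 1.28%, 0.253% and 1.13% were higher with DEHP at 2, 8, 24 and 72 h, and 0.214%, 2.86%, 0.044% and 3.05% were lower. Of 24 other liver transcription factors measured, 1 was higher at 2 h, 1 higher and 3 lower at 8 h, none called at 24 h and 4 lower at 72 h. Creb3l3, the liver's fasting-induced partner of PPARA, was 0.53 ± 0.09 higher at 2 h (12.15 in DEHP livers, 11.62 in corn oil livers, adjusted p = 0.00317) and 0.42 ± 0.09 higher at 8 h (0.00791, but 0.0739 with the Actb difference as a covariate, 0.0749 without both 8 h arrays numbered 14 and 0.0576 in a fit of the 8 h arrays alone). Xbp1, a secretory stress factor, was -0.72 ± 0.14 at 8 h (11.55 against 12.27, adjusted p = 0.00388) and -0.70 ± 0.14 at 72 h (0.00756, but 0.074 with the mean of its probe sets). Stat5b, a growth hormone mediator, was -0.55 ± 0.11 at 8 h (0.00323, but 0.183 with the mean of its probe sets). At 72 h Gata6 was -0.54 ± 0.10 (0.00312, but 0.106 with the mean of its probe sets) and Gata4 -0.42 ± 0.10 (0.0229), whose call was lost on omission of replicate 2 of corn oil or 2 or 3 of DEHP (0.0668 to 0.0866) and with quantile normalization (0.0604). The median of the list was -0.20 at 72 h, beside -0.03 over all genes.

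Among 8 C/EBP family members and partners, none was called at 2, 8 or 24 h and 3 were lower at 72 h. Ddit3, the stress-induced C/EBP homologous protein, was -0.74 ± 0.14 (8.17 in DEHP livers, 8.91 in corn oil livers, adjusted p = 0.00537). Atf5 was -0.77 ± 0.17 (0.0119) and Cebpg -0.53 ± 0.12 (0.0144). The Atf5 call was lost on omission of replicate 2 of corn oil or 2 or 3 of DEHP (0.0596 to 0.0758), and the Cebpg call without corn oil replicate 2 (0.0737) or DEHP replicate 3 (0.0761) and with the mean of its probe sets (0.0717). The median of the list at 72 h was -0.48. Cebpd, the partner induced with Cebpb in inflammation, was 0.35 ± 0.26 at 2 h and 0.47 ± 0.26 at 8 h, neither of them called.

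Among relatives and regulators of the FOXO proteins, Sgk1 was called at both later times. Of 19 measured, none was called at 2 h or 8 h, 1 was higher at 24 h and 2 were lower at 72 h. Sgk1, a kinase that phosphorylates FOXO proteins, was 1.02 ± 0.17 higher at 24 h (9.39 in DEHP livers, 8.36 in corn oil livers, adjusted p = 0.00437) and -0.79 ± 0.17 at 72 h (8.26 in DEHP livers, 9.05 in corn oil livers, adjusted p = 0.0128). The 72 h call was lost without corn oil replicate 3 (0.0506) or DEHP replicate 3 (0.0833). Akt1 was -0.51 ± 0.12 at 72 h (0.0147), lost without DEHP replicate 2 (0.0508) or 3 (0.0619) and with quantile normalization (0.0862). Ppargc1a, the coactivator through which FOXO1 drives glucose production, was -1.56 ± 0.41 at 2 h and -0.99 ± 0.41 at 8 h without a call (adjusted p = 0.0826 and 0.207). With the mean of its probe sets Ppargc1a was the 1 gene of the list called at 2 h (-1.06 ± 0.20, 0.00742).

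Of 24 FOXO targets, 3 were higher at 2 h, 2 higher and 2 lower at 8 h, none called at 24 h and 2 lower at 72 h, with medians of 0.13, -0.03, -0.00 and -0.01. The 3 that rose at 2 h were Pdk4 (4.96 ± 0.27), which spares glucose and is also a PPARA target, Cdkn1a (1.81 ± 0.21), a cell cycle inhibitor, and Txnip (1.5 ± 0.21), which limits glucose uptake, with adjusted p of 0.000324 or less. At 8 h Pdk4 (5.97 ± 0.27) and the lipase gene Pnpla2 (0.79 ± 0.07) were higher, and Cited2 was lower (-1.08 ± 0.23). At 72 h Egfr (-0.89 ± 0.20, adjusted p = 0.0156) and Cdkn1a (-0.81 ± 0.21, 0.0328) were lower. The Egfr call was lost on omission of replicate 1 or 2 of corn oil or 2 or 3 of DEHP (0.0526 to 0.0762) or with the mean of its probe sets (0.0739), and the Cdkn1a call on omission of replicate 2 or 3 of corn oil or 2 or 3 of DEHP (0.0884 to 0.167), with quantile normalization (0.0787) or from the 6 arrays alone (0.0865).

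Of 18 targets of HNF4A and the FOXA proteins, 1 was lower at 2 h, 2 higher and 1 lower at 8 h, none called at 24 h and 4 lower at 72 h, with medians between -0.10 and -0.03 at the 4 times. Cyp7a1, the first enzyme of bile acid synthesis, was -1.40 ± 0.29 at 2 h (adjusted p = 0.0195), lost on omission of replicate 2 or 3 of corn oil or 2 or 3 of DEHP (0.0653 to 0.14), with the mean of its probe sets (0.0597) or with a robust variance trend (0.0617). At 8 h Tat (0.67 ± 0.10), a tyrosine-degrading enzyme, and Mttp (0.53 ± 0.10), which loads lipoproteins, were higher (adjusted p = 0.00038 and 0.00182), and F7, a clotting factor, was lower (-0.52 ± 0.13, 0.0233). The F7 call was lost on omission of replicate 1 of corn oil (0.106) or of replicate 1 (0.0977) or 3 (0.136) of DEHP, with the Actb difference as a covariate (0.105) or from the 6 arrays alone (0.0522).

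At 72 h the clotting factor gene F9 was -0.51 ± 0.10 (10.98 in DEHP livers, 11.49 in corn oil livers, adjusted p = 0.00754) and held without each array in turn. F7 was -0.63 ± 0.13 (0.00903), lost without DEHP replicate 2 (0.0536), and Apoa4, an apolipoprotein gene, was -1.08 ± 0.24 (0.0146), lost without DEHP replicate 1 (0.0582) or 3 (0.0598). Among 15 C/EBP targets, 1 was higher at 2 h, 1 higher at 8 h, none called at 24 h and 2 lower at 72 h. The gene higher at 8 h was Tat. Saa1, an acute phase gene, was -3.84 ± 0.59 at 72 h (adjusted p = 0.000747) and held without each array. Saa2 was 4.21 ± 0.95 at 2 h (0.0344) and -3.95 ± 0.95 at 72 h (0.0225). The first call was lost on omission of any corn oil array or replicate 1 or 3 of DEHP (0.0682 to 0.241), and the second on omission of replicate 1 of corn oil or any DEHP array (0.0517 to 0.0822), and both with a robust variance trend (0.127 and 0.0559). Without the 5 arrays with high pancreas markers, the list calls of Creb3l3 and Saa2 at 2 h did not pass (0.166 and 0.862), nor did those of Gata4, Sgk1, Akt1, Egfr, Apoa4, F7 and Saa2 at 72 h (0.06 to 0.129).

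Of 8 ONECUT1 targets, which include Foxa2 and Hnf4a themselves, Cyp7a1 was lower at 2 h and Hnf4a at 72 h, and none was called at 8 h or 24 h. Slc2a2, the glucose transporter of hepatocytes, was -0.50 ± 0.16 at 8 h without a call (adjusted p = 0.0839).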

How the data were processed

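The deposited table holds log2 signals of 45101 probe sets on 24 arrays, made by the authors with RMA, per the submitters' processing notes, which give no version. Arrays have no depth, their number limits precision, and no detection calls were used. GEO's platform annotation gave 34958 probe sets 1 symbol, 932 several and 9211 none. Genes were represented by the probe set with the highest mean, which left 18194. A model of the 8 groups was fitted in limma 3.58.1 (R 4.3.3) with empirical Bayes moderation and Benjamini-Hochberg adjustment over all genes. It was also run on simulated data with independent noise for each gene. That simulation held no outlying or degraded arrays, so no conclusion about these data is drawn from it. The fit had no block: of 12 pairs of arrays sharing a replicate number across compounds, 1 correlated over 0.1 (range -0.35 to 0.14). Named list genes are the 3 called genes with the largest change per list and time, or the largest without a call, and up to 3 genes are named by likeness for members with an F-test call. The members and lists were chosen with earlier results of these data known. Alternatives covered scaling, filters, probe sets, blocks, thresholds and left-out arrays. Leaving out the 5 arrays whose summed log2 signal of the pancreas markers was above 11 was added after seeing the data. Some listed genes are not reported here. Promoter sequences are from RefSeq (GRCm38.p6).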

Additional observations from a re-analysis of the deposited data

Results flagged for a closer look

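The DEHP effect of 3 of the 9 genes differed between 2, 8, 24 and 72 h by the F test for such a difference. The adjusted p over all genes was 0.0145 for Foxo3, 0.0237 for Cebpb and 0.0244 for Foxa3, against 2.08% of all genes called. Without DEHP 72 h replicate 3 that of Cebpb was 0.0632 and that of Foxa3 0.0501. The tests of Foxo3 and Foxa3 did not hold without the 5 arrays with high pancreas markers, as given above. Cebpb also had arrays that separated completely in opposite directions. All DEHP arrays were higher at 2 h (log2 difference 0.64) and at 8 h (0.50), and all were lower at 72 h (-0.47). Of all genes, 11.4%, 18.6% and 28.2% separated in either direction at these times. No single Cebpb difference was called in the fit of all arrays. Without corn oil 72 h replicate 1 the 72 h difference was -0.26.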

How the results depend on the processing

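Of 18 other settings and 24 fits without 1 array, the number of the 9 genes called moved by over 1.5 times as follows. The replicate block (arrays sharing only a number, 3 of 12 correlating best with their own) gave 2 at 2 h, with Cebpb added (adjusted p = 0.0469), and 1 in each corn oil test. Replicate 1 against later ones as a block gave 2 for successive corn oil times and 1 in the corn oil F test. Genes above the 40th percentile gave 1 for changes of the effect and 2 for successive corn oil times. The mean of all probe sets gave 2 at 2 h, 2 at 8 h and 1 for the average effect. The robust variance trend gave 1 for changes of the effect and 1 for successive corn oil times. Array weights gave 2, 5, 3 and 2 for changes of the effect, successive DEHP times, successive corn oil times and the corn oil F test. Median centring and leaving out both arrays numbered 14 each gave 1 for successive corn oil times. Quantile normalization gave 1 at 72 h. An adjusted p under 0.01 gave 1 at 72 h, 1 for successive DEHP times, 2 at any time and 0 for a difference between times. A change of at least 1.5-fold gave 1 at 72 h, 0 for the average effect and 1 for successive DEHP times. Leaving out both arrays that stood apart (replicate 2 of corn oil 8 h, replicate 1 of corn oil 72 h) gave 2 at 2 h, and the 6 arrays of a time alone gave 2 at 8 h. Leaving out the 5 arrays with high pancreas markers, chosen after seeing the data, gave 0 at 2 h, 2 at 8 h, 1 at 72 h, 1 for successive corn oil times, 1 for a difference between times and 1 in the corn oil F test, with 19 arrays left.

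Leaving out 1 array gave 1 to 1 at 2 h, 1 to 2 at 8 h, 0 to 0 at 24 h, 1 to 2 at 72 h, 2 to 4 for the average effect, 0 to 1 for changes of the effect, 1 to 4 and 0 to 2 for successive times in DEHP and corn oil, 3 to 5 at any time, 1 to 3 for a difference between times and 0 to 1 in the corn oil F test. Signs turned for Hnf4a at 8 h (0.34, mean of all probe sets), Ppara at 2 h (0.16 so and 0.01 with median centring), Foxa2 at 72 h (-0.01 with array weights, -0.11 without the 2 arrays that stood apart, -0.14 without those 5), Foxa3 at 2 h (0.06 without those 5) and Onecut1 at 8 h (0.01 without both arrays numbered 14). Without 1 array they turned for Foxa1 at 2 h (-0.29 to 0.14), 8 h (-0.60 to 0.06) and 72 h (-0.70 to 0.03), Foxa2 at 72 h (-0.11 to 0.18), Foxa3 at 24 h (-0.12 to 0.27), Cebpa at 72 h (-0.13 to 0.02) and Ppara at 2 h (-0.17 to 0.22). None of these was called. The causes were not tested. With 3 arrays a group, small differences could not be seen.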
